A study of Homo sapiens with 4 samples.

Results

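The genes described are those of the 3 nuclear RNA polymerases and of the factors that place polymerases I and III on their genes, measured in OPM2, an established line of human myeloma, a tumour of plasma cells. Members were taken by symbol: every gene named POLR1, POLR2 or POLR3 with a following letter, the TAF1A, TAF1B and TAF1C genes, BRF1, BRF2, BDP1, MAF1 and GTF3C1 to GTF3C5. These were 42 of the 18377 genes that had a probe set of their own on the array. The rule uses no measured value, but it was written with earlier results of these data known. RNA of 2 cultures given VS-5584, a small molecule that inhibits mTOR and the class I PI3 kinases, at 123 nM for 24 h was set against RNA of 2 cultures given the drug's solvent DMSO for 24 h. The design text gives the dose as 125 nM, below the 48-h IC50 of the line. All cultures were of the same line in the same serum-containing medium, each was read on 1 one-colour array, and no genetic change was made. The labels name biological replicates but not how their cultures were kept apart, so p-values measure only the spread between these samples.

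RNA polymerase I transcribes the large ribosomal RNA precursor, polymerase II the messenger RNAs, and polymerase III the 5S ribosomal RNA, the transfer RNAs and other short RNAs. Each enzyme is built around a pair of large catalytic subunits, shares a set of small subunits with the others and adds peripheral subunits of its own. Polymerases I and III make most of a cell's RNA by mass, and signalling through mTOR is known to raise their activity in growing cells, partly by keeping the polymerase III repressor MAF1 phosphorylated. The arrays measured the mRNAs of these proteins, not the activity of the enzymes.

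Where a pair of values is given for a group, replicate 1 comes before replicate 2. Median intensity over 28869 probe sets ran from 50.0 to 52.5 on the VS-5584 arrays and from 49.3 to 50.0 on the control arrays. VS-5584 replicate 2 stood apart: its log2 values were less spread, with an interquartile range of 1.74 log2 units against 1.93 to 1.95 on the other 3 arrays. Over all probe sets, VS-5584 replicate 1 correlated more with the 2 control arrays (Pearson's r = 0.9963 and 0.9934) than with VS-5584 replicate 2 (0.9853). The 2 VS-5584 arrays thus did not group together. Over the 11026 genes tested, the median difference from the control mean was -0.0022 on VS-5584 replicate 1 and -0.14 on VS-5584 replicate 2. All 9 plasma cell markers, among them IRF4, XBP1 and TNFRSF17, were in the tested range. Their intensities summed to 10290 and 9257 on the VS-5584 arrays and to 9183 and 8755 on the control arrays. The sums hide mixed directions: 5 markers were higher and 4 lower on average. Without overlap, 2 were higher and 1 was lower, SDC1 with a difference of -0.14. All 3 T cell markers with a probe set and all 4 monocyte markers lay below the filter on dim genes. Of 3 B cell markers with a probe set, 2 lay below it and 1, PAX5, passed, at log2 intensities from 5.53 to 5.74. The 4 fibroblast markers were higher without overlap, and 2 of them, COL1A1 and COL1A2, passed the filter. The intensities of the 4 summed to 228.8 and 232.4 on the VS-5584 arrays and to 214.9 and 213.9 on the control arrays. Also higher without overlap were 3 of the 4 monocyte markers, with list sums of 142.9 and 149.0 on the VS-5584 arrays against 138.9 and 139.7 on the control arrays. The 4 epithelial markers summed to 177.0 and 281.8 on the VS-5584 arrays and to 170.5 and 198.7 on the control arrays. The high sum came from KRT18, at a log2 intensity of 6.33 and 7.42 on the VS-5584 arrays and of 6.20 and 6.57 on the control arrays, with overlap, and the 1 marker without overlap was the dim KRT8, with a difference of 0.057. The 6 proliferation markers, such as CDK1 and MKI67, were lower on both VS-5584 arrays than on both controls. Their intensities summed to 4542 and 3788 on the VS-5584 arrays, against 5792 and 5284 on the control arrays, and the part of these lists in the values below was not tested.

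Of the 42 genes, 41 passed the filter on dim genes. The other was POLR1HASP, a transcribed antisense pseudogene beside POLR1H, which was not tested. It stood at a log2 intensity of 4.95 and 4.94 on the VS-5584 arrays and of 4.98 and 4.91 on the control arrays. Of the 41 tested, 37 were lower in VS-5584 cells on average, where 62.7% of all tested genes were. With limma, 0 of the 41 had an adjusted p under 0.05, as did 0% of all genes tested, and the smallest adjusted p was 0.323, for POLR3G. At an unadjusted p under 0.05, 12 members were lower, against 8.93% of all genes, and 1 was higher, against 1.49%. The unmoderated test also called 0 members. It gave 4 members at an unadjusted p under 0.05, all lower, against 492 of all 11026 genes in either direction. The self-test recovered 94% of genes simulated with a 2-fold change. It gave every array independent noise of equal spread, with no array like VS-5584 replicate 2, so 94% may not hold for these arrays. The differences of the members lay between -0.53 and 0.34 on the log2 scale, all smaller than 2-fold. A difference of this size that missed the threshold is not shown to be absent.

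For 21 of the 41 genes both VS-5584 arrays lay below both control arrays, against 29.2% of all genes tested, and for 2 genes both lay above, against 14.7%. VS-5584 replicate 2 carried the larger part: it lay below both controls for 37 members, where the share over all genes was 60.1%. It lay below VS-5584 replicate 1 for 38 members, and for 7962 of all 11026 genes tested. VS-5584 replicate 1 lay below both controls for 21 members, where the share over all genes was 34.6%. The median difference of the 41 genes was -0.23 (log2), with -0.09 on VS-5584 replicate 1 and -0.38 on VS-5584 replicate 2, and the median over all tested genes was -0.06. With the tested genes split by mean level into 4 bins of equal size, the members in the 2 brighter bins, 15 and 17 genes, had medians of -0.23 and -0.24, where all genes of those bins had -0.16 and -0.13. The 8 members in the second-dimmest bin had a median of -0.21, where all its genes had -0.04. A gene's own level and its difference were nearly unrelated among the members (Pearson's r = 0.01 over 41 genes that share the same 4 arrays, given as a description).

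**Figure D1:**
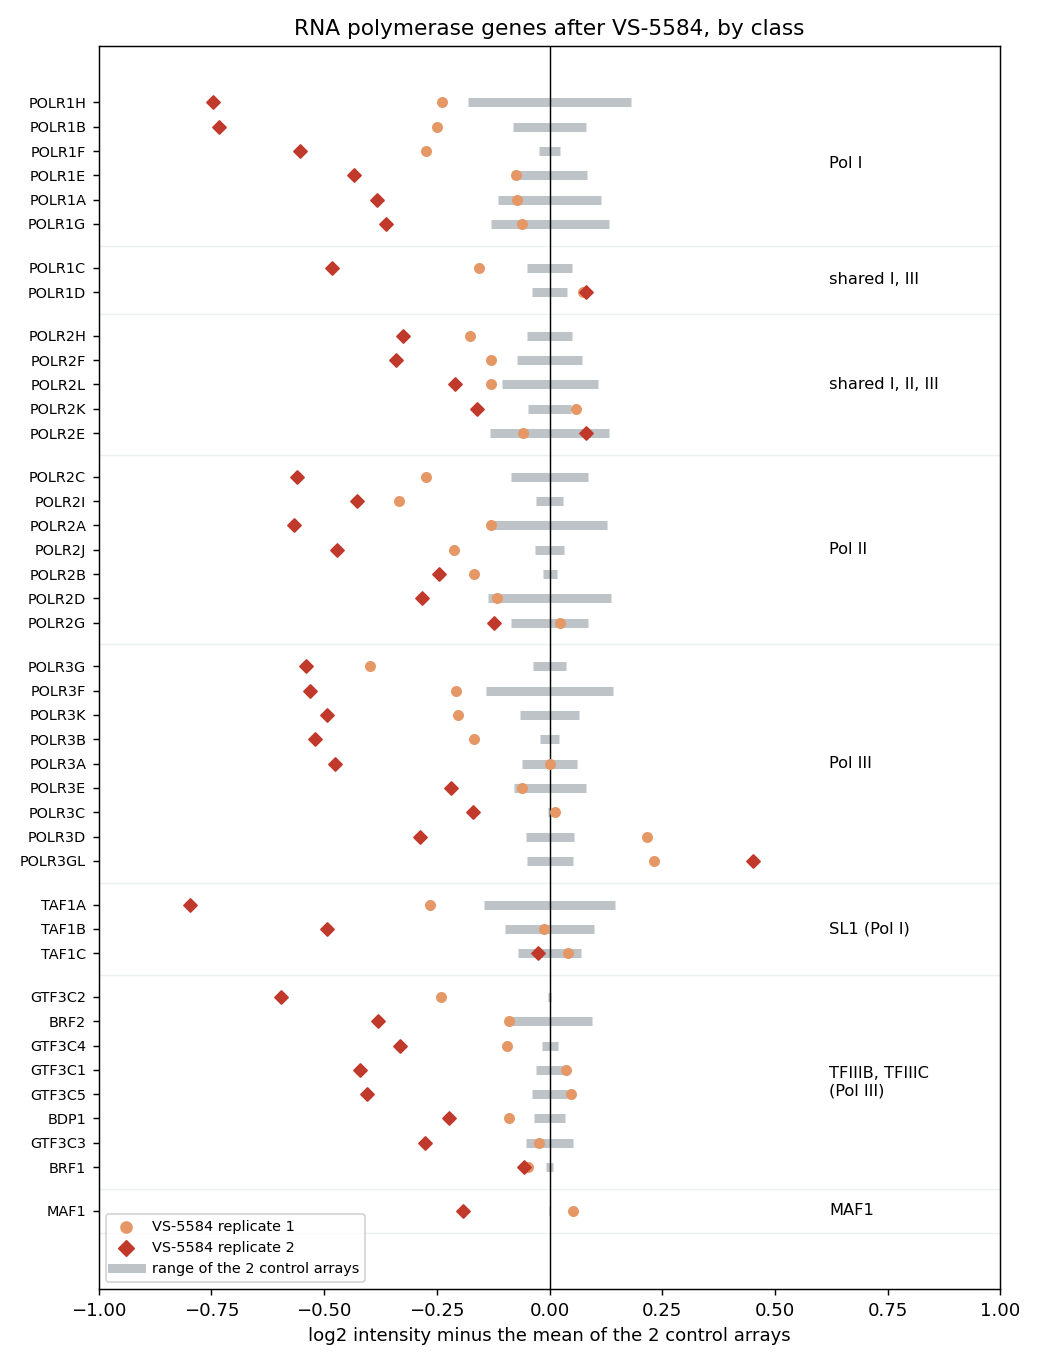
Each row is 1 tested gene, and the x axis is its log2 intensity minus the mean of the 2 control arrays. Orange circles are VS-5584 replicate 1, red diamonds VS-5584 replicate 2, and grey bars the range of the 2 control arrays. Both VS-5584 arrays lie left of the control range for 21 of 41 genes, and right of it for POLR3GL and POLR1D.

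Scaling changed the size of these differences. After cyclic loess, which bends each array's values onto a common curve, 30 of the 41 members were lower, against 49% of all genes, and the median of the members was -0.10 with a median of 0.004 over all genes. Both VS-5584 arrays then lay below both controls for 19 members, against 22.8% of all genes.

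All 6 subunits found only in polymerase I had lower means, with a median of -0.33 and a range from -0.49 to -0.21. POLR1B, the second-largest subunit and part of the catalytic centre, stood at 7.70 and 7.21 (log2 intensity) on the VS-5584 arrays, against 7.87 and 8.03 on the control arrays. The groups did not overlap, and VS-5584 replicate 2 was the lowest. The difference was -0.49 ± 0.17 (SE), a 1.41-fold lower mean, with limma adjusted p = 0.415. POLR1A, the largest subunit, stood at 7.09 and 6.78 on the VS-5584 arrays and at 7.05 and 7.28 on the control arrays. Here VS-5584 replicate 1 lay between the controls, and the difference was -0.23 ± 0.16 (limma adjusted p = 0.619).

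POLR1F, which forms part of the enzyme's stalk, stood at 7.57 and 7.29 on the VS-5584 arrays, against 7.87 and 7.82 on the control arrays. Its groups were apart by several times the gap between the controls, but the VS-5584 arrays were more spread (standard deviation 0.20 against 0.03 for the controls). POLR1F differed by -0.41 ± 0.14 (limma adjusted p = 0.403). POLR1H, the small zinc-ribbon subunit that takes part in cleaving the transcript, stood at 6.56 and 6.06 on the VS-5584 arrays and at 6.62 and 6.98 on the control arrays, a difference of -0.49 ± 0.19. The gap between the groups was small beside that between the controls. Its second, dimmer probe set differed by -0.39 and did not overlap between the groups either. POLR1E and POLR1G, which form a heterodimer on the enzyme's flank, differed by -0.25 ± 0.16 and -0.21 ± 0.16. POLR1G stood at 6.91 and 6.61 on the VS-5584 arrays and at 6.84 and 7.10 on the control arrays, so that the groups overlapped. The median of the 6 genes was -0.16 on VS-5584 replicate 1 and -0.49 on VS-5584 replicate 2, and -0.18 over both after cyclic loess.

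The TAF1A, TAF1B and TAF1C genes encode TBP-associated subunits of SL1, the factor that recruits polymerase I to the ribosomal RNA promoter. TAF1A stood at 6.50 and 5.97 on the VS-5584 arrays, against 6.91 and 6.62 on the control arrays. It had the most negative difference of all members, -0.53 ± 0.19 (limma adjusted p = 0.417), with no overlap between groups. TAF1B stood at 7.36 and 6.88 on the VS-5584 arrays and at 7.47 and 7.27 on the control arrays, a difference of -0.25 ± 0.18 with overlap. TAF1C stood at 6.17 and 6.11 on the VS-5584 arrays and at 6.06 and 6.20 on the control arrays, a difference of 0.01 ± 0.13 whose sign turned with median centring. On VS-5584 replicate 1 alone the median of these 3 genes was -0.01, and on VS-5584 replicate 2 it was -0.49.

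Of 4 other polymerase I factors, all had lower means, with a median of -0.35, and none passed the threshold. RRN3, the factor TIF-IA that makes polymerase I able to initiate and is a known target of mTOR signalling, stood at 7.85 and 7.49 on the VS-5584 arrays, against 8.20 and 8.23 on the control arrays. The control arrays differed by far less than the groups, but the VS-5584 arrays were more spread (standard deviation 0.26 against 0.02 for the controls). The difference was -0.55 ± 0.15 (limma adjusted p = 0.319). TTF1, which ends transcription of the ribosomal RNA gene, differed by -0.45 ± 0.20, with 0.45 between its controls.

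POLR1C and POLR1D form the assembly heterodimer that polymerases I and III have in common. Their differences had opposite signs. POLR1C stood at 9.27 and 8.94 on the VS-5584 arrays, against 9.37 and 9.47 on the control arrays, a difference of -0.32 ± 0.15 (limma adjusted p = 0.504). POLR1D stood at 9.66 and 9.67 on the VS-5584 arrays and at 9.55 and 9.63 on the control arrays, a difference of 0.08 ± 0.13 (limma adjusted p = 0.845). Neither gene overlapped between the groups, but for POLR1D the gap was small. Within arrays, the difference of POLR1C lay 0.40 log2 units below that of POLR1D (-0.23 and -0.56 on the 2 VS-5584 arrays, with the controls at -0.01 and 0.01). An exact two-sided permutation test over the arrays gave p = 0.333, the smallest that 2 against 2 allows. With POLR1C lower and POLR1D higher without overlap, this outcome was fixed in advance, so the test adds nothing to the values.

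The 5 subunits present in all 3 polymerases had a median of -0.17, a range from -0.25 to 0.01, and medians of -0.13 and -0.21 on VS-5584 replicates 1 and 2. POLR2H, which lies at the edge of the catalytic core, stood at 8.95 and 8.80 on the VS-5584 arrays, against 9.07 and 9.17 on the control arrays. POLR2F, which helps hold the clamp module, stood at 9.58 and 9.37 on the VS-5584 arrays, against 9.64 and 9.78 on the control arrays. These 2 genes differed by -0.25 ± 0.13 and -0.24 ± 0.14, and neither overlapped between groups. POLR2L differed by -0.17 ± 0.14 and POLR2K by -0.05 ± 0.14. POLR2E stood at 6.08 and 6.22 on the VS-5584 arrays and at 6.01 and 6.27 on the control arrays, so that its VS-5584 values lay inside the control range. After cyclic loess the median of the 5 genes was -0.015.

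All 7 tested subunits of polymerase II had lower means, with a median of -0.34 and a range from -0.42 to -0.05. POLR2A, the largest subunit, whose long repeated tail is phosphorylated during transcription, stood at 8.25 and 7.82 on the VS-5584 arrays and at 8.26 and 8.51 on the control arrays. VS-5584 replicate 1 was almost level with control replicate 1, and the difference was -0.35 ± 0.17 (limma adjusted p = 0.519). POLR2B, the second-largest subunit, stood at 10.68 and 10.60 on the VS-5584 arrays, against 10.86 and 10.83 on the control arrays. Its replicates lay close together in both groups, which did not overlap, and the difference was -0.21 ± 0.13 (limma adjusted p = 0.587).

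POLR2I, the zinc-ribbon subunit that takes part in transcript cleavage and accuracy, stood at 8.14 and 8.04 on the VS-5584 arrays, against 8.44 and 8.50 on the control arrays. Here both VS-5584 arrays were lower by similar amounts, -0.33 and -0.43, and the difference was -0.38 ± 0.13 (limma adjusted p = 0.401). POLR2C, which forms the assembly platform of polymerase II with POLR2J, stood at 6.99 and 6.70 on the VS-5584 arrays, against 7.17 and 7.35 on the control arrays. POLR2C differed by -0.42 ± 0.15 and POLR2J by -0.34 ± 0.14, both without overlap. POLR2D and POLR2G form the stalk of polymerase II. POLR2G stood at 8.91 and 8.76 on the VS-5584 arrays and at 8.80 and 8.97 on the control arrays, a difference of -0.05 ± 0.14 with overlap, and POLR2D differed by -0.20 ± 0.15, also with overlap. The class median was -0.17 on VS-5584 replicate 1 and -0.43 on VS-5584 replicate 2, and -0.18 over both after cyclic loess.

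Of 29 general initiation factors of polymerase II that were tested, 24 were lower and 5 higher on average, none past the threshold, with a median of -0.13. TAF5, a scaffold subunit of TFIID, stood at 7.19 and 6.85 on the VS-5584 arrays, against 7.68 and 7.93 on the control arrays, a difference of -0.79 ± 0.16 (limma adjusted p = 0.254). GTF2F2, a subunit of TFIIF, differed by -0.42 ± 0.15. Of 20 elongation and termination factors, 16 were lower on average and none passed, with a median of -0.14. The 2 subunits of the histone chaperone FACT had the smallest unadjusted p in that list, SUPT16H with -0.48 ± 0.15 and SSRP1 with -0.33 ± 0.16.

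**Figure D2:**
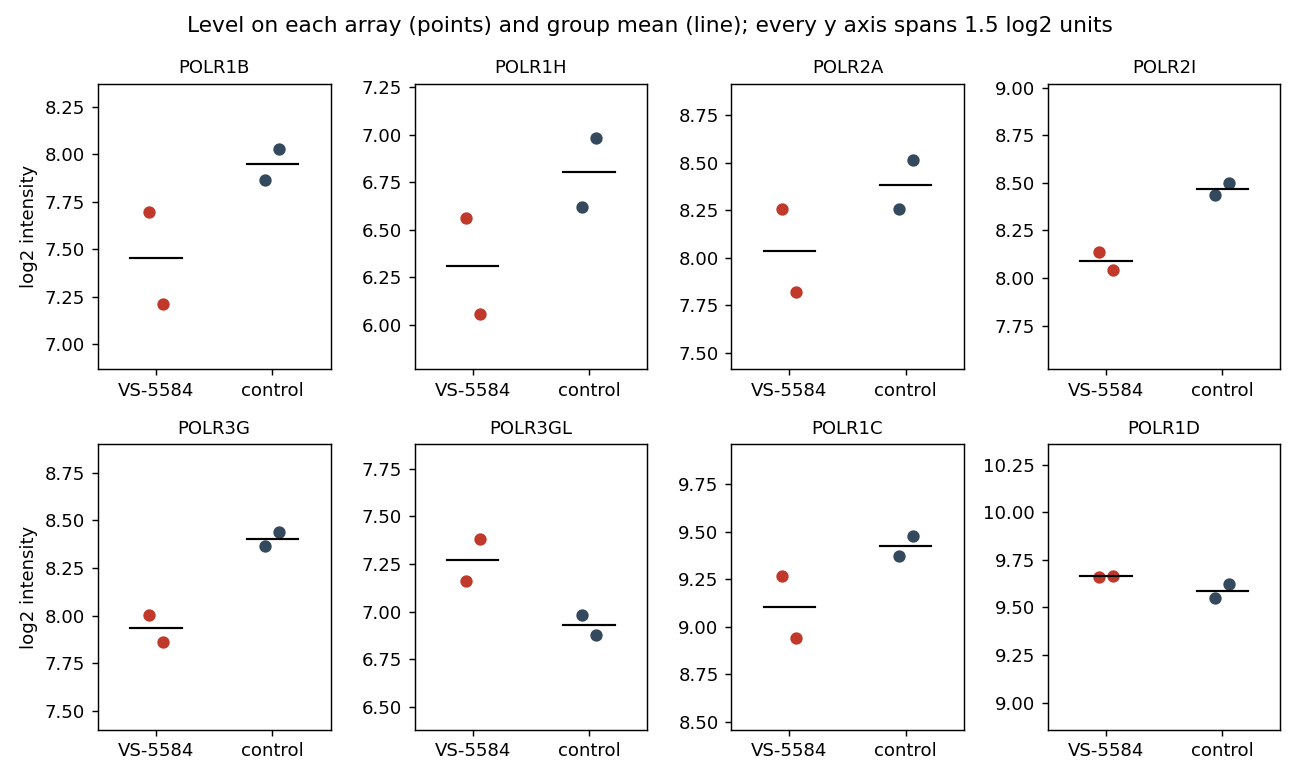
Log2 intensity of 8 genes on each array (points) with the group mean (line), VS-5584 left and control right, on y axes of equal span. POLR3GL is the gene whose 2 VS-5584 arrays, 7.16 and 7.38, lie clearly above its controls, while POLR3G lies at 8.004 and 7.861, below its controls.

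Of the 9 tested subunits found only in polymerase III, 8 were lower and 1 was higher on average, with a median of -0.24 and a range from -0.47 to 0.34. The 2 ends of that range were a pair of paralogues. POLR3G and POLR3GL encode alternative versions of the same subunit, so that a polymerase III enzyme carries one or the other. POLR3G is known from stem cells and tumour cells, and POLR3GL is the more widely expressed form.

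POLR3G stood at 8.004 and 7.861 on the VS-5584 arrays, against 8.365 and 8.439 on the control arrays. Both VS-5584 arrays lay well below both controls, and the difference was -0.47 ± 0.13 (SE), a 1.38-fold lower mean with limma adjusted p = 0.323. POLR3GL stood at 7.16 and 7.38 on the VS-5584 arrays, against 6.98 and 6.88 on the control arrays. Both VS-5584 arrays lay above both controls, and the difference was 0.34 ± 0.14, a 1.27-fold higher mean with limma adjusted p = 0.454. Within arrays, the difference of POLR3G lay 0.81 log2 units below that of POLR3GL, a 1.75-fold lower ratio (-0.63 and -0.99 on the 2 VS-5584 arrays, with the controls at -0.09 and 0.09). The exact two-sided permutation test over arrays again gave p = 0.333, the smallest possible. Here too the outcome was fixed in advance, because POLR3G was lower and POLR3GL higher without overlap. After cyclic loess the differences were -0.31 for POLR3G and 0.48 for POLR3GL, and without VS-5584 replicate 2 they were -0.40 and 0.23.

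POLR3A, the largest subunit of polymerase III, stood at 6.936 and 6.460 on the VS-5584 arrays and at 6.875 and 6.996 on the control arrays. VS-5584 replicate 1 lay between the controls, and the difference of -0.24 ± 0.17 (limma adjusted p = 0.633) came from VS-5584 replicate 2. POLR3B, the second-largest subunit, stood at 8.61 and 8.26 on the VS-5584 arrays, against 8.80 and 8.76 on the control arrays, a difference of -0.34 ± 0.15 without overlap. POLR3K, the zinc-ribbon subunit that corresponds to POLR1H and POLR2I in the other enzymes, stood at 10.24 and 9.95 on the VS-5584 arrays, against 10.51 and 10.37 on the control arrays, a difference of -0.35 ± 0.15 without overlap.

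The peripheral trimer of POLR3C, POLR3F and POLR3G helps open the promoter. Beside POLR3G, POLR3F differed by -0.37 ± 0.16 without overlap and POLR3C by -0.08 ± 0.14 with overlap. POLR3D and POLR3E form a heterodimer on the enzyme's flank and differed by -0.04 ± 0.17 and -0.14 ± 0.14. For POLR3D the VS-5584 arrays lay on either side of the controls, at 7.68 and 7.17, against 7.41 and 7.51. The class median was -0.06 on VS-5584 replicate 1 and -0.48 on VS-5584 replicate 2, and -0.13 over both after cyclic loess.

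TFIIIC binds the internal promoters of transfer RNA genes and brings in TFIIIB, which positions polymerase III. All 8 tested TFIIIB and TFIIIC genes had lower means, with a median of -0.19 and a range from -0.42 to -0.05. GTF3C2, a TFIIIC subunit, stood at 7.48 and 7.13 on the VS-5584 arrays, against 7.73 and 7.72 on the control arrays, a difference of -0.42 ± 0.15 (limma adjusted p = 0.418) without overlap. The other TFIIIC genes, GTF3C1, GTF3C3, GTF3C4 and GTF3C5, differed by -0.15 to -0.21, and of these only GTF3C4 was without overlap. BRF2, the TFIIIB subunit used at promoters of the U6 type, stood at 6.49 and 6.20 on the VS-5584 arrays and at 6.49 and 6.68 on the control arrays, a difference of -0.24 ± 0.15 with overlap. BRF1, its counterpart at transfer RNA and 5S genes, stood at 6.007 and 5.998 on the VS-5584 arrays and at 6.046 and 6.062 on the control arrays, a difference of -0.05 ± 0.13. BDP1, the third TFIIIB subunit, differed by -0.16 ± 0.13, and its second probe set by -0.16. The class median was -0.07 on VS-5584 replicate 1 and -0.36 on VS-5584 replicate 2, and -0.07 over both after cyclic loess.

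MAF1, the repressor of polymerase III that mTOR is known to phosphorylate, stood at 6.94 and 6.70 on the VS-5584 arrays and at 6.89 and 6.89 on the control arrays. The VS-5584 arrays lay on either side of the controls, and the difference was -0.07 ± 0.14 (limma adjusted p = 0.867), turning to 0.04 after cyclic loess. Phosphorylation of the protein was not measured.

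Of 9 other polymerase III factors tested, 8 were lower on average and none passed, with a median of -0.11. SNAPC1, part of the complex that binds snRNA promoters, differed by -0.52 ± 0.20, with -0.18 on VS-5584 replicate 1 and -0.86 on VS-5584 replicate 2. ZNF143, an activator of those promoters, differed by -0.28 ± 0.14. Among RNAs made by polymerase III, 7 of 15 listed had a probe set and 3 were tested. RNU6ATAC, an RNA of the minor spliceosome, stood at 5.91 and 6.44 on the VS-5584 arrays and at 5.93 and 6.02 on the control arrays, a difference of 0.20 ± 0.18. RMRP and RPPH1, the RNA parts of the RNases MRP and P, differed by 0.05 ± 0.22 and 0.03 ± 0.19, while their controls differed from each other by -0.61 and -0.52. Column purification of total RNA, as the labels' protocols describe, can recover short RNAs poorly, and its part in these values was not tested.

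Assembly and import factors bring polymerase subunits together in the cytoplasm and into the nucleus. Of the 11 listed, 10 were lower on average and none passed, with a median of -0.24. GPN3, a GTPase needed for nuclear entry of polymerase II, stood at 8.05 and 7.61 on the VS-5584 arrays, against 8.55 and 8.45 on the control arrays, a difference of -0.67 ± 0.16 (limma adjusted p = 0.285). RUVBL2, an ATPase of the R2TP co-chaperone, differed by -0.49 ± 0.18. The mitochondrial transcription list, a machinery apart from the nuclear enzymes, had 7 of 7 lower on average and none past the threshold, with a median of -0.26. TFAM, which packages and activates mitochondrial DNA, differed by -0.35 ± 0.15 and TEFM, an elongation factor, by -0.37 ± 0.17.

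**Figure D3:**
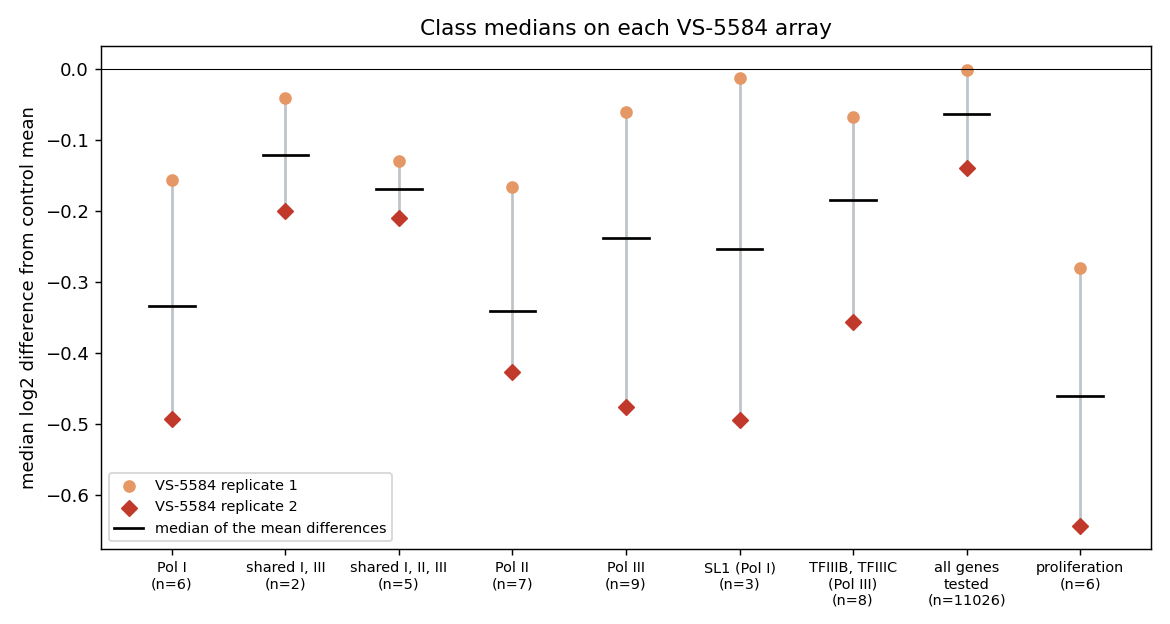
The y axis is the median log2 difference from the control mean over the tested genes of each class, for VS-5584 replicate 1 (circles) and replicate 2 (diamonds), with the median of the mean differences as a line. Every class is lower on replicate 2 than on replicate 1, and the proliferation markers, at -0.28 and -0.64, lie below each polymerase class on both arrays.

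By polymerase, the medians were -0.33 for polymerase I, -0.34 for polymerase II and -0.24 for polymerase III subunits, against -0.06 for all genes tested. The order of polymerase I and polymerase II depended on the array: polymerase I was the lower on VS-5584 replicate 2 (-0.49 against -0.43) and polymerase II on VS-5584 replicate 1 (-0.17 against -0.16). Differences between the classes were not tested.

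Promoters of the members were searched for CACGTG, the E-box letters that MYC and related factors are known to bind, because this motif is a common feature described for growth genes. The motif reads the same on both strands, and the window was the 250 bases before the start in the RefSeq promoter table (GRCh38.p14), which held 32 of the 42 genes. It was found in 5 of the 32 genes (15.6%), against 7.73% of all 27305 genes in the table, or in 5 of 44 member promoters against 6.34% of all promoters. These were GTF3C2, GTF3C4, POLR1G, POLR3A and POLR3C, whose differences ran from -0.42 to -0.08. The genes not in the table were BRF2, MAF1, POLR1E, POLR1HASP, POLR2G, POLR2I, POLR2J, POLR2K, POLR3D and POLR3G. A match is a description of the letters only. A pair of promoters with the motif and that of POLR3GL, the gene with the most positive difference and no match, are shown 5′ to 3′ on the strand of the gene, with the motif in capitals. GTF3C2 lies on the minus strand at chr2:27356765-27357014, with the motif beginning 103 bases before the start. POLR3A lies on the minus strand at chr10:78029516-78029765, with the motif beginning 35 bases before the start. POLR3GL lies on the plus strand at chr1:145964440-145964689.
GTF3C2: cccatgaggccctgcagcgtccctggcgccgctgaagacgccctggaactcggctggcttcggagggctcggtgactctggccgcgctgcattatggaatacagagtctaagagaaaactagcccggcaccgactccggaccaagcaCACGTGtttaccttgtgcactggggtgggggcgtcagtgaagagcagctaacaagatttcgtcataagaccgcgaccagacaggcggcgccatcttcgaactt
POLR3A: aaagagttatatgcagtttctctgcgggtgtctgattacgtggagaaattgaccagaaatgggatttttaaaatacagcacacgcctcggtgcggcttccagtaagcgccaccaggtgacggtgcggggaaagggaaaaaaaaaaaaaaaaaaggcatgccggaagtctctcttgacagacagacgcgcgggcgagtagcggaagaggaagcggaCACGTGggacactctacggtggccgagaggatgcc
POLR3GL: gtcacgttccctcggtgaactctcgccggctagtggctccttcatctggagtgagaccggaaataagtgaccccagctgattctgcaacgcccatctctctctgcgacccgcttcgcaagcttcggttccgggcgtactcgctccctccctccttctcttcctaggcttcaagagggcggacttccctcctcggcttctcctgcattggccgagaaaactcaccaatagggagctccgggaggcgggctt

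**Figure D4:**
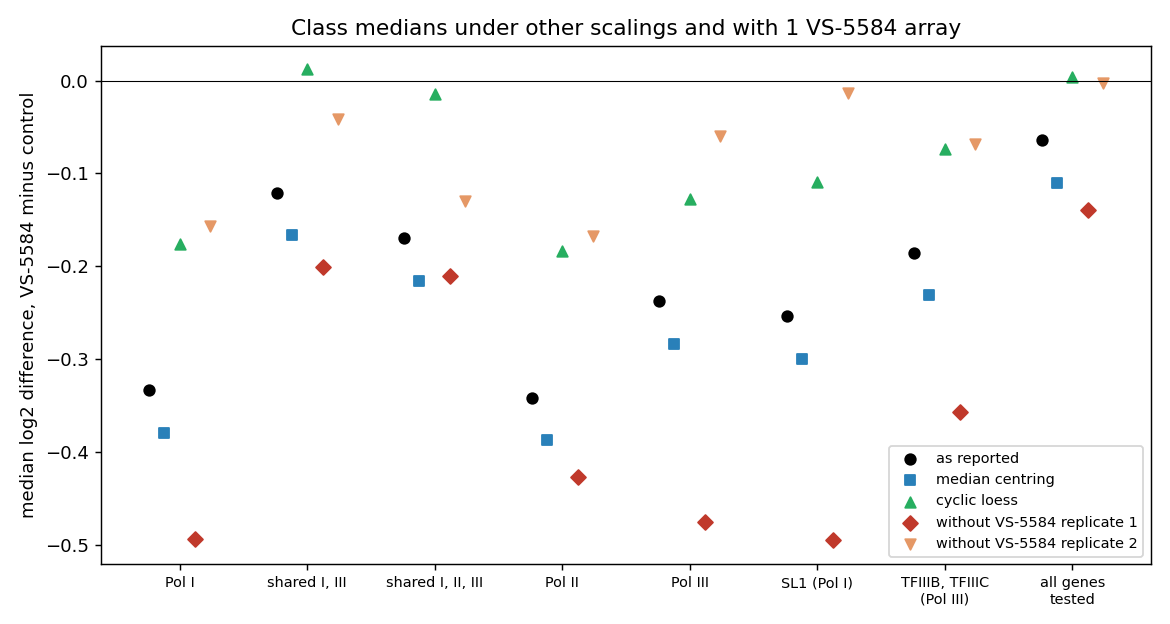
The y axis is the class median of the log2 differences, VS-5584 minus control, as reported (black circles), after median centring (blue squares), after cyclic loess (green triangles) and with 1 VS-5584 array left out (diamonds and inverted triangles). Polymerase I stays between -0.49 and -0.16 and polymerase II between -0.43 and -0.17 over these 5 settings, while the pair shared by I and III reaches 0.01 after cyclic loess.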

How the data were processed

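One-colour array data of 2 VS-5584 and 2 control cultures were used, grouped by sample title. The authors' deposited values are linear intensities of 28869 probe sets. The submitters' processing notes name RMA without a version, and how its output became linear values is not stated there. An added constant would shrink the differences of dim genes. Detection calls were not used here, so no gene is called above background, and having only 4 arrays limits precision.

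Intensities were turned into log2 values and not normalized again. Probe sets that the platform annotation maps to 1 gene (19310) were named, with symbols updated by gene ID from RefSeq (GRCh38.p14) for 19279. A gene with several was represented by the brightest on average. The 40% of 18377 genes with the lowest mean were left out, below an intensity of 48.9. The 11026 others were tested in R 4.3.3 with limma 3.58.1 (linear model and eBayes, two-sided, Benjamini-Hochberg over all tested genes, threshold 0.05). Members, gene lists and the rule for genes with a value on every array (catalytic and zinc-ribbon subunits, MAF1, POLR3G and POLR3GL, and per class the 2 smallest unadjusted p and the member furthest on the other side of the class median) were chosen with earlier results of these data known. Of other lists, the 2 genes with the smallest unadjusted p are named. Bins of mean level and pairwise ratios were added after the data were seen. POLR2J2 and POLR2J3 had no probe set of their own under this annotation and were not analysed here as members. 1 item is not reported here. On simulated data with 11026 genes, 94% of genes changed 2-fold and 100% of genes changed 4-fold were called, and 13 unchanged genes were. Each simulated gene had independent noise of equal spread on all 4 arrays. Alternatives were a replicate block, median centring, cyclic loess, other filters, an intensity trend, averaged probe sets, 16 subtracted before log2, an unmoderated test, annotation symbols and leaving out each array. Figures were drawn with matplotlib 3.10.9.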

Additional observations from a re-analysis of the deposited data

How the results depend on the processing

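With all 4 arrays, genes passing over all tested numbered 432 with the replicate block, 80 with an intensity trend, 58 with the lowest 60% left out, 19 after cyclic loess and 2 with 16 subtracted, against 0 as reported and under the other settings. The replicate block called 2 of the 41 polymerase genes, TAF1A (limma adjusted p = 0.0243) and POLR1B (0.0480), against 432 of all 11026 genes tested. The replicate numbers are shared by the groups, but no label says that equal numbers mark a shared batch or day, so they are not taken as pairs. The 1 correlation that could be had between their deviations, 0.16, does not decide whether they are. After cyclic loess the medians were -0.18 for polymerase II subunits, -0.015 for those shared by all 3 enzymes and 0.012 for those shared by I and III. With median centring POLR2E was at -0.034 and TAF1C at -0.038. After cyclic loess signs turned for GTF3C3 (0.0046), MAF1 (0.043), POLR2G (0.10), POLR2K (0.067), POLR3C (0.043), POLR3D (0.12) and POLR3E (0.012). Symbols of the annotation gave the same members. The cause was not tested.

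Leaving out 1 array in turn gave 2 genes passing without VS-5584 replicate 2 to 2636 without VS-5584 replicate 1, and 0 to 20 members. Each such fit assumes that the lone array varies like the other group. Members lower without overlap ran from 21 without VS-5584 replicate 2 to 37 without VS-5584 replicate 1. The shares over all genes moved with them, at 34.6% and 60.1%. With only 1 control array left, 30 members lay below it without control replicate 1, against 42.0% of all genes. Without control replicate 2 there were 24, against 43.3%. Medians ran from -0.38 to -0.090 for all members, -0.43 to -0.17 for polymerase II, -0.48 to -0.060 for polymerase III, -0.36 to -0.068 for TFIIIB and TFIIIC and -0.28 to -0.10 for the subunits shared by all 3 enzymes. Of single genes, the sign turned for TAF1C (-0.062 to 0.078), GTF3C1 (-0.42 to 0.036), GTF3C5 (-0.40 to 0.048), MAF1 (-0.19 to 0.052), POLR2E (-0.12 to 0.14), POLR2G (-0.14 to 0.035), POLR2K (-0.16 to 0.059), POLR3A (-0.48 to 0.0007), POLR3C (-0.17 to 0.012) and POLR3D (-0.29 to 0.22). Without VS-5584 replicate 2, 23 of 41 differences shrank by over 1.5 times.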

Other observations

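The close copies of POLR2J, a subunit of the polymerase II assembly platform, were read by probe sets that the annotation maps to several genes. The 2 probe sets mapped to POLR2J, POLR2J2, POLR2J3 and POLR2J4 alone differed by -0.063 and 0.037 (log2), with overlap between the groups, whereas the probe set of POLR2J alone differed by -0.34 without overlap. The other 4 probe sets also list UPK3BL1 or RASA4 genes and differed by -0.024 to 0.16, with overlap. None of these values can be assigned to a single gene of those listed.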
